A study of Mus musculus with 6 samples.

Results

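Some probe sets of an expression array are annotated to more than 1 gene, because the genes overlap, run into each other or are close copies. Here such shared probe sets were taken as the rows of the deposited value table whose platform annotation held at least 2 different gene symbols. They made up 2262 of 115050 rows, against 25493 rows with 1 symbol and 87295 with none. A value of a shared row is 1 number on the log2 scale for all the genes it names, so a difference in it cannot be assigned to any of them without other rows.

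Liver RNA of 6 male C57BL/6 mice, all fasted for 24 h, had been hybridised to an Affymetrix mouse exon array. The Cpt2KO group held 3 mice with floxed Cpt2 alleles and an albumin-driven Cre (Albumin-Cre;Cpt2f/f), which deletes in hepatocytes, and the WT group held 3 mice with the same floxed alleles and no Cre (Cpt2f/f). The labels list ages of 9, 10 and 11 weeks for WT and 12, 13 and 14 weeks for Cpt2KO, while the growth protocol gives 9 weeks for all, so listed age and genotype cannot be told apart. Cpt2 encodes carnitine palmitoyltransferase II of the inner mitochondrial membrane, which returns imported acylcarnitines to acyl-CoA for beta-oxidation. Its own row, which names no other gene, held 7.56, 7.72 and 7.63 in WT and 6.48, 6.73 and 6.75 in Cpt2KO (a difference of -0.99 in log2 units, with an SE of 0.11 and an adjusted p of 0.00419 by limma).

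Mouse liver expresses several families that have grown by tandem duplication. Cytochromes P450 of the Cyp2c, Cyp2d and Cyp3a groups hydroxylate steroids, fatty acids and drugs, Cyp4a enzymes hydroxylate fatty acids at the omega end, Slc22a proteins carry organic ions, and Serpina1 genes encode alpha-1-antitrypsins of the plasma. Their coding sequences can be so alike that a probe matches several copies. Processed pseudogenes, copies of an mRNA inserted elsewhere in the genome, produce the same ambiguity for abundant housekeeping genes such as Gapdh, tubulins and ribosomal proteins.

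The promoters of some copies are also alike, although promoter sequence does not show how alike the probed transcripts are. Given here are the 250 bases before the annotated starts of 4 gene pairs that share rows described below. They are shown 5′ to 3′ on the gene's strand from RefSeq windows of build GRCm38.p6. Capitals mark bases with no identical partner in a global alignment of the pair's whole windows, which also hold 50 bases after the start. A run of capitals at an end reflects an offset between the annotated starts. Cyp2c37 lies at chr19:39992174-39992423 (plus strand) and Cyp2c50 at chr19:40089429-40089678 (plus strand), and their windows were 86.6% identical.
Cyp2c37: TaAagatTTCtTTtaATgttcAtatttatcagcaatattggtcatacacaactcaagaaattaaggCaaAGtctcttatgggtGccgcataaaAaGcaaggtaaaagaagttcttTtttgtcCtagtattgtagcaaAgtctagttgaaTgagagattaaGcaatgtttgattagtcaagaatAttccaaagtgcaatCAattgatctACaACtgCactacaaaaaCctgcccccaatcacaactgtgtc
Cyp2c50: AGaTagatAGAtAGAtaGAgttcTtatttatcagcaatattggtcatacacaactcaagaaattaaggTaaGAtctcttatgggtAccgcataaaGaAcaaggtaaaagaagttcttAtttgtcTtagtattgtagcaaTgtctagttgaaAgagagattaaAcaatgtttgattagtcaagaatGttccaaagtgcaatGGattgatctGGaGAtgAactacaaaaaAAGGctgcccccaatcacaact
The windows of the organic anion transporter genes Slc22a30 (chr19:8405106-8405355, minus strand) and Slc22a28 (chr19:8131983-8132232, minus strand) were 94.1% identical.
Slc22a30: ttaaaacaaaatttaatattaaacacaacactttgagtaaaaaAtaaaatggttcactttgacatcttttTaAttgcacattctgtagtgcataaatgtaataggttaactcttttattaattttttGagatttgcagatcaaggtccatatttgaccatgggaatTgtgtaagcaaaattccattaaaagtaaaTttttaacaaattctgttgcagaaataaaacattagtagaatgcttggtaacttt
Slc22a28: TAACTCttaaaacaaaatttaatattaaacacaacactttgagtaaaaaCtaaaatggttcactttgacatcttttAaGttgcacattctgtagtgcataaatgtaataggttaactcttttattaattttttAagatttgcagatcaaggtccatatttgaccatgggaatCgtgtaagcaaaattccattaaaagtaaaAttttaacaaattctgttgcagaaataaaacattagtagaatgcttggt
The alpha-1-antitrypsin genes Serpina1a (chr12:103863620-103863869, minus strand) and Serpina1c (chr12:103904951-103905200, minus strand) reached 91.2%.
Serpina1a: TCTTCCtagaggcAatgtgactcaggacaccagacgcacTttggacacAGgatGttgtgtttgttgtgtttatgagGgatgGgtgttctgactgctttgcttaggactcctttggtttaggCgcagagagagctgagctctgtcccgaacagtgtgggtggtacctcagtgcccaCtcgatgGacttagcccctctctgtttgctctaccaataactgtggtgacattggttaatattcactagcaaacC
Serpina1c: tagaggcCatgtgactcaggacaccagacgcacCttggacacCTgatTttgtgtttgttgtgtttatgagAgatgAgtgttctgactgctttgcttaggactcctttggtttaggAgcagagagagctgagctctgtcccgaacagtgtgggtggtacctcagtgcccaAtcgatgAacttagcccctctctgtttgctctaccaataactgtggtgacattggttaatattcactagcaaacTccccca
The acute phase genes Saa1 (chr7:46742981-46743230, minus strand) and Saa2 (chr7:46751583-46751832, plus strand), which point away from each other, reached 95.3%.
Saa1: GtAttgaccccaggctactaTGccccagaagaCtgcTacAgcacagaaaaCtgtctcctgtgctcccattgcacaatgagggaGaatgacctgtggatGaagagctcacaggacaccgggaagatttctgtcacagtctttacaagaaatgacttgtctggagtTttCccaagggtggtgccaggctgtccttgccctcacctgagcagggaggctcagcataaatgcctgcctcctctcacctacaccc
Saa2: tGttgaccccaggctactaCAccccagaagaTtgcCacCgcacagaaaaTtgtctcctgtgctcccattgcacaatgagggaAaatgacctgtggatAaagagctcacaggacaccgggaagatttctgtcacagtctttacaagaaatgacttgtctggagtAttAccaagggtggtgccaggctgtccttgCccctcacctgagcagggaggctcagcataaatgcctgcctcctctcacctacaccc

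Not every shared row joined genes with like promoters. Windows were found for 2157 of the 3070 symbols, and 1338 of the 2262 rows had windows for at least 2 of their symbols. A stem was the letters that open a symbol, such as Cyp, so genes sharing one need not be close copies. The median identity between windows was 62.1% for rows whose symbols share a stem and 46.6% for rows joining genes of different stems. At least 70% identity was reached by 40.3% and 10.4% of those rows. Acot1 and Acot2 (45.7%), Hsd3b2 and Hsd3b6 (45.5%) and Slc22a27 and Slc22a29 (48.2%) shared rows with identities close to the latter median. The letters TATAAA, searched on both strands, stood in 19.1% of the windows of genes in shared rows and in 14.2% of all 27025 windows.

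By what they name, the rows fell into 5 classes. Symbols of 1 stem made up 829 rows, and 680 more joined genes of 1 stem with predicted genes or pseudogenes. Different stems were joined by 580 rows, 161 named predicted genes only, and 12 named small RNA genes. In the RefSeq gene table, 758 rows named neighbours within 100 kb and 596 named genes farther apart on 1 chromosome. A further 616 joined genes of different chromosomes, and 111 joined genes that overlap. The remaining 181 rows held a symbol not matched there. Of the 680 rows with predicted genes or pseudogenes, 348 joined different chromosomes. Pairs made up 1556 of the 2262 rows, and 41 rows named 10 or more symbols. The 5 rows with the most, 15 each, belonged to the Ssty1 family of the Y chromosome.

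One array stood apart over these rows and is given first because counts below are also given without it. Cpt2KO replicate 1 correlated at r = 0.978 and 0.980 with the other Cpt2KO arrays over the shared rows, against 0.991 between those and 0.990 to 0.992 among the WT arrays. It exceeded all 5 other arrays by at least 1 on the log2 scale in 52 shared rows (2.3%), whereas the other arrays did so in 0 to 4 rows each. Among rows with 1 symbol it did so in 0.38%, and among rows with no symbol in 1.85%.

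**Figure D1:**
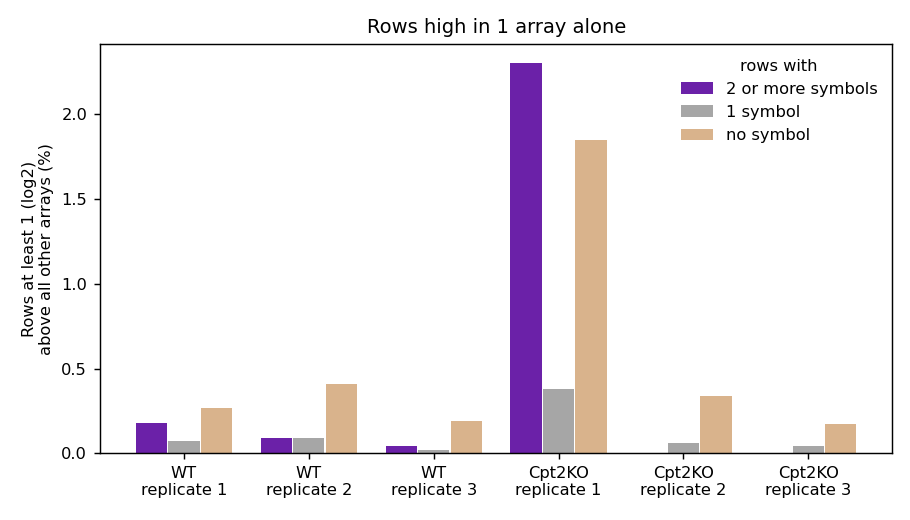
Share of rows, in percent, whose value in the array on the x axis was at least 1 (log2) above the highest of the other 5 arrays, for rows with 2 or more symbols (2262), 1 symbol (25493) and no symbol (87295). Cpt2KO replicate 1 reached 2.3%, 0.38% and 1.85%, and every other bar lies below 0.5%.

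Some symbols recurred among the 52 rows. Cwc22, a splicing factor gene, was named in 10 of them out of its 16 shared rows. The centrosomal protein gene Sfi1 was named in 7 of 11, and Sft2d2 in 8 of 10. The others included sets of Ssty, Slx, Vmn1r, Amy2 and Serpinb9 genes and rows such as D130040H23Rik/Spats1 and Me3/Rsph3a/1700034P13Rik. The Sfi1/Sft2d2 row with the widest gap held 2.92, 2.94 and 2.67 in WT and 5.01, 2.49 and 3.05 in Cpt2KO. A Cwc22/Il1f9 row held 6.84, 6.91 and 6.99 in WT and 8.43, 6.69 and 6.52 in Cpt2KO. A Serpinb9 row held 2.49, 2.10 and 2.35 against 4.22, 2.71 and 2.91. In each, the high value belongs to Cpt2KO replicate 1 alone, and none of these 3 rows passed the test. What sets that array apart was not tested. Counts over all shared rows, by class and by family are therefore also given without it. A loss of calls was not particular to that array. Of 55 changed rows among the named rows, 16 lost their call without it and 11 to 23 without each other array. The array weight given by limma was 1.145 for it, and the lowest was 0.598, for Cpt2KO replicate 3.

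Of the 2262 shared rows, 129 differed between the genotypes at an adjusted p under 0.05 by limma, 59 of them higher and 70 lower in Cpt2KO. That is 5.7%, and the share over all 27755 rows naming a gene was 5.71% (3.17% higher and 2.54% lower). Of the 129, 19 were at least 2-fold higher and 29 at least 2-fold lower. The 3 values of one group lay wholly outside those of the other in 497 shared rows (22%), against 23.2% of all rows naming a gene and 23.4% of those with 1 symbol. The count over all shared rows was thus at the background. Without Cpt2KO replicate 1, 36 rows were higher and 55 lower, against a background of 3.52% (1.88% higher and 1.64% lower). Of the 129, 81 were called in both fits. In both fits more of the called shared rows were lower, while over all rows naming a gene more were higher.

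**Figure D2:**
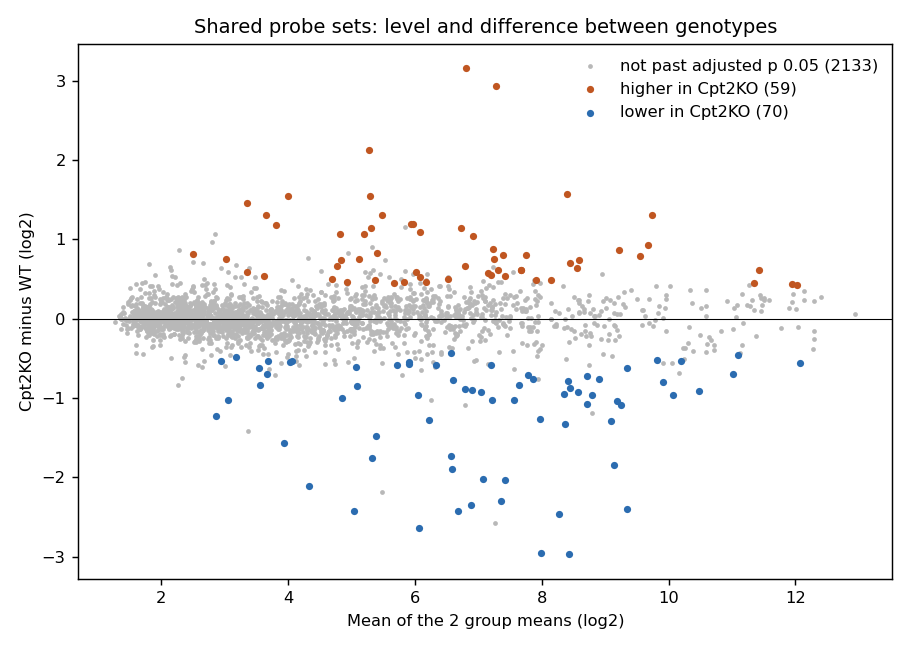
Each point is 1 of the 2262 shared rows, with the mean of its 2 group means on the x axis and Cpt2KO minus WT on the y axis, both log2. The 59 rows called higher and 70 called lower lie mostly above a level of 5, and the lowest, near -3, are Cyp2c rows.

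The share called rose with the level of the row up to the range from 7 to 9 and no further. It was alike in shared and 1-symbol rows of the same level. Among rows with a mean level under 3, 0.39% of shared and 0.414% of 1-symbol rows were called. From 7 to 9 the shares were 19.2% and 19.3%, and from 9 upwards 18.3% and 17.2%. The median level of shared rows was 3.81 and that of 1-symbol rows 4.0. Receptor genes made up much of the dim end, since 308 shared rows joined olfactory or vomeronasal receptors at a median level of 2.15, and 2 of these rows were called.

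**Figure D3:**
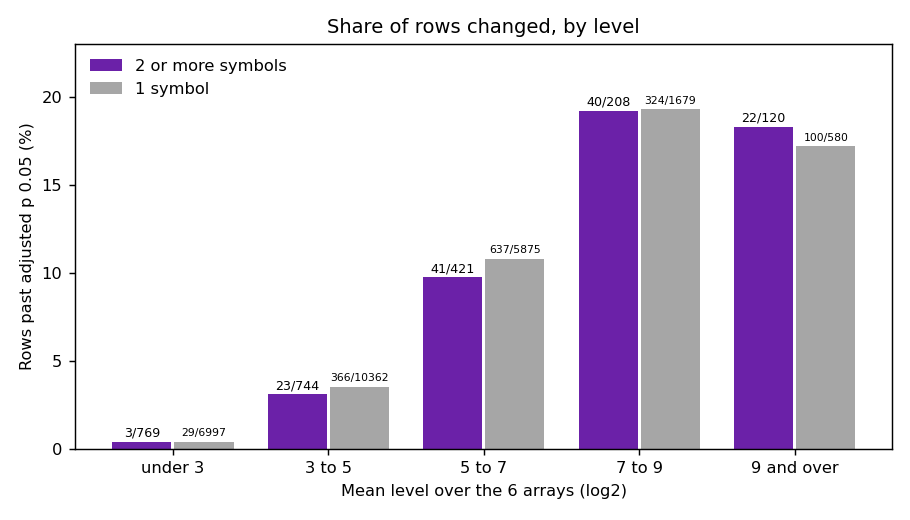
Rows past adjusted p 0.05, in percent of the rows in each range of mean level (log2), for shared rows and rows with 1 symbol, with the counts above the bars. The shares rise from 0.39% and 0.414% under 3 to 19.2% and 19.3% from 7 to 9, and are 18.3% and 17.2% at 9 and over.

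The calls were also counted by class of row. The share over all rows naming a gene was 5.71% (3.17% higher and 2.54% lower). Rows of 1 stem gave 13 higher and 51 lower of 829 (7.72% called). Rows joining 1 stem with predicted genes or pseudogenes gave 27 higher and 7 lower of 680 (5%). Rows joining different stems gave 18 higher and 12 lower of 580 (5.17%). Rows of predicted genes only gave 1 higher and 0 lower of 161 (0.621%), and rows of small RNA genes none of 12. Without Cpt2KO replicate 1 the higher and lower counts were 10 and 37 for 1 stem, 18 and 6 with predicted genes or pseudogenes, 7 and 9 for different stems, which turned from more higher to more lower, and 1 and 3 for predicted genes only. Median levels also differed, at 2.93 for 1 stem, 5.12 with predicted genes or pseudogenes, 4.30 for different stems and 3.03 for predicted genes only. The difference between the classes was not tested. By family, 22 of the 52 with at least 2 shared rows held a changed row. The 5.71% over all rows naming a gene stands beside each family count, here and below. Without Cpt2KO replicate 1 the count of calls stayed the same in 8 of the 22 (Cyp2a, Cyp3a, Ces, Slc22a, Hsd3b, complement, Acot and olfactory receptors). It fell from 9 to 8 for Cyp2c, from 2 to 1 for Cyp2d and for Cyp4a, from 3 to 1 for Serpina1, from 3 to 2 for Apol and from 7 to 6 for tubulins. In 8 families no call was left, namely Ugt1a (2 before) and, with 1 before, aldo-keto reductase, kallikrein, major histocompatibility, vomeronasal, ribosomal protein, interferon-induced and proteasome rows.

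The cytochromes P450 held the largest block of lowered rows. Of 29 shared rows naming them, 16 were lower and 2 higher (62.1% called), with a median difference of -0.77, and 14 were lower and 1 higher without Cpt2KO replicate 1. The share called over all rows naming a gene was 5.71%. These 29 rows had a median level of 8.27, and 19.2% of all shared rows at levels from 7 to 9 were called. They held 19 symbol sets, so several name the same genes. Cyp2c enzymes, hydroxylases and epoxygenases of drugs and fatty acids, gave 9 lower of 11 rows, with a median of -2.35. Rows naming Cyp2c37, Cyp2c50 and Cyp2c54 together fell most. The first held 9.50, 9.35 and 9.57 in WT and 6.32, 6.52 and 6.72 in Cpt2KO, a 7.76-fold difference (-2.96, SE 0.13, adjusted p = 0.000264 by limma). A second row of the same genes held 9.84, 9.91 and 9.99 against 6.53, 7.02 and 7.27 (-2.97, adjusted p = 0.000544 by limma), and the last 10.35, 10.60 and 10.70 against 7.68, 8.18 and 8.58 (-2.40, adjusted p = 0.00205 by limma). The groups were far apart in all 3 rows, and in each the highest Cpt2KO value was replicate 3.

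Rows of Cyp2c38 and Cyp2c39, whose windows were 78.1% identical, also fell, by 2.46, 2.42 and 2.35 on the log2 scale, but with a wide spread among the knockouts. The brightest held 9.31, 9.63 and 9.59 in WT and 6.27, 6.72 and 8.14 in Cpt2KO. Replicate 3 lay between the other Cpt2KO arrays and the WT arrays in all 3 rows. Their adjusted p by limma was 0.0222, 0.0181 and 0.0137, and leaving out any single WT array took each above 0.05. Cyp2c38 also had rows of its own, and these disagreed: one held 10.17, 10.37 and 10.17 in WT against 7.76, 8.18 and 9.03 (-1.91, adjusted p = 0.0131 by limma), and another 7.36, 7.66 and 7.54 against 8.12, 6.95 and 7.04 (-0.15, adjusted p = 0.886).

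Outside the rule for named rows, and chosen after their values were seen, were the other Cyp2c rows. The Cyp2c29/Cyp2c65/Cyp2c66/Cyp2c53-ps row fell by 1.27 (adjusted p = 0.00159 by limma), while Cyp2c53-ps alone read 2.46 with a difference of -0.03. Rows of Cyp2c40, Cyp2c67, Cyp2c68 and Cyp2c69 fell by 1.29 and 1.07, with Cpt2KO replicate 3 again nearest to WT at 9.00 and 8.45, and each passed in 2 of the 6 fits without an array. The remaining Cyp2c rows, at levels near 2, differed by -0.10 each.

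Cyp3a enzymes, which hydroxylate steroids, bile acids and drugs, were lower in 4 of 4 shared rows, with a median of -1.17. The Cyp3a11/Cyp3a44/Cyp3a41a/Cyp3a41b row held 9.92, 10.31 and 9.97 in WT and 8.04, 8.15 and 8.46 in Cpt2KO (-1.85, SE 0.15, adjusted p = 0.00148 by limma). A dimmer row of the same 4 genes held 6.99, 7.04 and 6.94 against 6.31, 5.98 and 6.35, a difference of -0.77 that lost its call without any 1 of the WT arrays. Rows of Cyp3a25, Cyp3a57 and Cyp3a59 fell by 1.26 and 1.08, and Cyp3a57 alone fell by 0.56 (adjusted p = 0.0211), a call lost in each fit without an array. Promoter windows were 97.0% identical between Cyp3a41a and Cyp3a41b and 70.4% between Cyp3a11 and Cyp3a41a.

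Cyp2d rows were lower in 2 of 2, by 0.95 for Cyp2d40/Cyp2d10/Cyp2d9 (9.02, 8.70 and 8.75 in WT against 7.86, 7.79 and 7.97) and by 0.46 for Cyp2d10/Cyp2d11/Cyp2d9. The second lost its call whichever array was left out. Of 4 Cyp2a rows, Cyp2a4/Cyp2a5, steroid and coumarin hydroxylases, fell from 9.26, 9.27 and 9.30 to 8.12, 8.20 and 8.62 (-0.96, adjusted p = 0.0113 by limma), and another Cyp2a4/Cyp2a5 row near a level of 2 differed by -0.08.

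The Cyp4a rows ran the other way. These enzymes hydroxylate fatty acids at the omega end, a step that feeds peroxisomal oxidation. Cyp4a12a/Cyp4a12b held 11.20, 11.00 and 11.15 in WT and 11.69, 11.85 and 11.67 in Cpt2KO (0.62, SE 0.10, adjusted p = 0.0172 by limma), and a second row rose by 0.46 (adjusted p = 0.0497). The first passed in 3 of the 6 fits without an array and the second in none. Another, which also names Cyp4a29, held 11.19, 11.03 and 10.96 against 11.47, 11.51 and 11.48 and missed the threshold (0.43, adjusted p = 0.0531). The Cyp4a10/Cyp4a31/Cyp4a32 row overlapped between the groups, at 11.21, 11.06 and 10.90 against 10.89, 11.14 and 11.21.

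**Figure D4:**
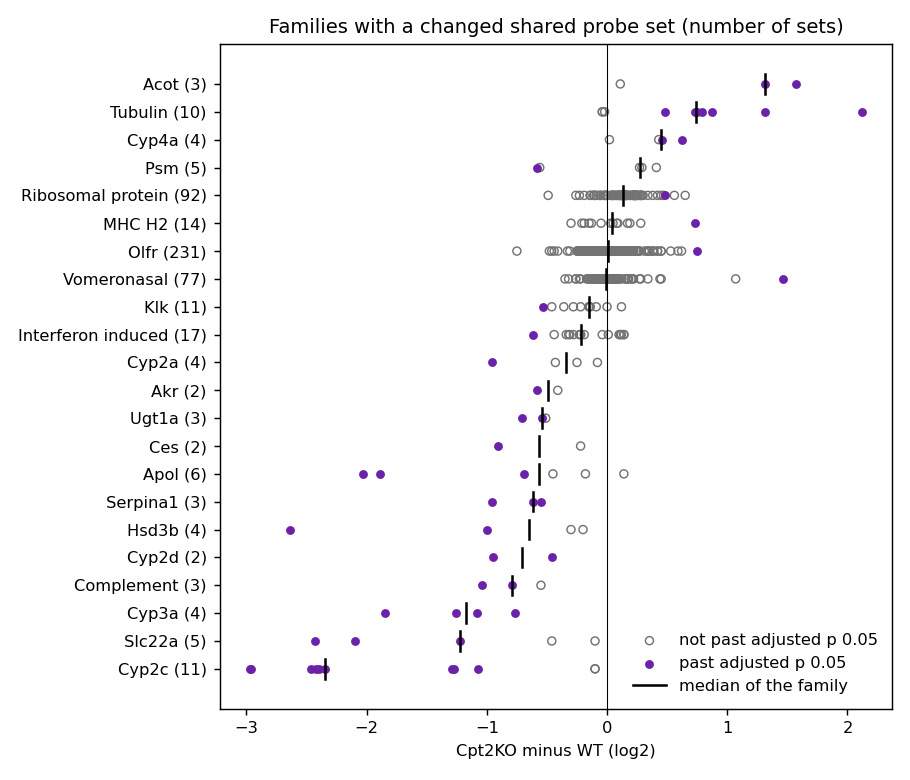
Difference between Cpt2KO and WT (log2) of every shared row in the 22 gene families that had at least 2 shared rows and a changed one, with the number of shared rows in brackets. Filled points passed adjusted p 0.05, and the bar is the family's median. Cyp2c (median -2.35), Slc22a and Cyp3a lie lowest, and Acot, Tubulin (median 0.74) and Cyp4a highest.

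Conjugation enzymes and transporters act on many of the same compounds as the P450s. Ugt1a rows, which cover alternative first exons of 1 locus with common later exons, gave 2 lower of 3, and none of them was called without Cpt2KO replicate 1. The row naming 8 Ugt1a genes held 8.06, 8.23 and 8.14 in WT and 7.30, 7.38 and 7.62 in Cpt2KO (-0.71, adjusted p = 0.0158 by limma) and passed in 2 of the 6 fits without an array. None of the 4 Ugt2 rows passed, and Ugt2b36/Ugt2b37/Ugt2b38/Ugt2b5 had the largest difference at -0.40. Among organic ion transporters, Slc22a30/Slc22a28 held 6.26, 6.05 and 6.44 in WT and 3.78, 3.81 and 3.88 in Cpt2KO (-2.43, SE 0.12, adjusted p = 0.000353 by limma). Slc22a30 alone showed a larger step, from 7.65, 8.14 and 8.03 to 3.99, 4.43 and 4.59 (-3.61, adjusted p = 0.000389 by limma). The steps of the 2 rows differed by 1.18, given with no test because the shared row was named for its size.

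Slc22a27/Slc22a29 rows disagreed with each other. One fell from 5.63, 5.17 and 5.35 to 3.14, 3.14 and 3.56 (-2.10, adjusted p = 0.00128 by limma) and one from 3.48, 3.35 and 3.59 to 2.26, 2.14 and 2.35 (-1.22). The other held 4.73, 4.08 and 4.02 against 4.18, 4.05 and 4.31, overlapped between the groups and differed by -0.10. The range of 2.01 between rows of 1 symbol set was far above the median range of 0.18 over all 367 sets with several rows.

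Of 4 shared rows of Hsd3b genes, 3-beta-hydroxysteroid dehydrogenases, 2 were lower and 0 higher. The share called over all rows naming a gene was 5.71%. Hsd3b2/Hsd3b6 held 7.30, 7.35 and 7.49 in WT and 4.33, 4.56 and 5.35 in Cpt2KO (-2.64, SE 0.25, adjusted p = 0.00205 by limma). Hsd3b6/Hsd3b2/Hsd3b3 fell from 5.41, 5.32 and 5.31 to 4.36, 4.29 and 4.40 (-1.0), and 4 rows of Hsd3b3 alone fell by 1.90 to 2.92, 2 of which lost their calls without any 1 of the WT arrays. The other Hsd3b rows, of Hsd3b4 and Hsd3b5, did not pass. Retinol dehydrogenases were not among the fixed families, and 2 of the 5 rows joining Rdh genes were lower and 0 higher. Rdh16f2/Rdh1 held 8.21, 7.96 and 8.10 in WT and 6.10, 6.05 and 6.07 in Cpt2KO (-2.02, SE 0.10, adjusted p = 0.000353 by limma). Rdh9/Rdh16/Rdh1 fell by 0.73, and the other Rdh rows differed by -0.54 to -0.21 without passing. Rdh1 by itself differed by -0.46 (adjusted p = 0.0596). Of the carboxylesterase rows, Ces3b/Ces3a fell by 0.91 (11.07, 10.80 and 10.93 against 10.04, 9.98 and 10.05), and the aldo-keto reductase row Akr1c12/Akr1c13 fell by 0.58, a call lost without most single arrays.

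Plasma proteins made by hepatocytes formed the next group. The 3 Serpina1 rows each name all 5 genes from Serpina1a to Serpina1e, and all were lower. The middle of the 3 by level held 10.65, 10.53 and 10.48 in WT and 9.66, 9.47 and 9.65 in Cpt2KO (-0.96, SE 0.10, adjusted p = 0.0033 by limma), the brightest fell by 0.55 from 12.45, 12.31 and 12.30 to 11.75, 11.78 and 11.87, and the dimmest fell by 0.62. Only the -0.96 row passed without Cpt2KO replicate 1, and each of the others passed in 1 of the 6 fits without an array. C4b/C4a, complement component 4, fell by 1.04 (9.95, 9.54 and 9.65 against 8.78, 8.67 and 8.57) and by 0.79, the latter a call that held in 1 of the 6 fits without an array, while the brightest C4 row held 10.48, 10.08 and 10.03 against 9.90, 9.47 and 9.55 and missed the threshold (-0.55, adjusted p = 0.126 by limma).

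The Mug genes encode murinoglobulins, plasma protease inhibitors. Mug1/Mug2 held 8.84, 8.82 and 7.86 in WT and 5.97, 6.24 and 6.42 in Cpt2KO (-2.30, SE 0.28, adjusted p = 0.00536 by limma), with WT replicate 3 nearest to the knockouts. Rows that also name Mug pseudogenes fell by 0.80 and 0.70, and the row of Mug1 alone held 12.77, 12.82 and 12.53 against 12.17, 12.32 and 12.41 (-0.41, adjusted p = 0.117). The Mug1/Mug2 windows were 71.5% identical. No shared row named a major urinary protein gene, a family known for near-identical copies. Its only rows were 4 of Mup3 alone.

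Saa1 and Saa2 encode serum amyloid A, the acute phase apolipoproteins of high-density lipoprotein. Their rows had differences as large as those of Cyp2c but did not pass, and their WT arrays were widely spread. Saa2/Saa1 held 9.58, 8.74 and 7.32 in WT and 6.81, 5.64 and 5.47 in Cpt2KO (-2.58, adjusted p = 0.056 by limma). Saa1/Saa2 held 7.49, 6.77 and 5.49 against 5.35, 3.84 and 3.99 (-2.19, adjusted p = 0.0859 by limma). The groups did not overlap in either row, yet the lowest WT array and the highest Cpt2KO array of each were close.

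Apolipoproteins L gave 3 lower of 6 rows, beside 5.71% called over all rows naming a gene. Apol9b/Apol9a fell from 8.65, 8.27 and 8.40 to 6.38, 6.29 and 6.56 (-2.03, SE 0.13, adjusted p = 0.000611 by limma), and a second row of the pair from 7.61, 7.47 and 7.49 to 5.46, 5.65 and 5.78 (-1.89). Apol7b/Apol7e fell by 0.69, a call that held in only 1 of the 6 fits without an array. Among interferon-induced genes, 1 of 17 rows passed, the guanylate-binding protein row Gbp2b/Gbp7, which fell by 0.62 and was not called without Cpt2KO replicate 1.

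Markers of cell types were read from rows with 1 symbol. Of 9 hepatocyte markers 7 had a row of their own, and 3 of these were called, all lower. Serpina6 fell by 3.35, Fgb by 0.76 and Alb by 0.69, while Ttr (-0.51), Hnf4a (-0.20), Apob (-0.16) and Cps1 (-0.14) did not pass. The mean level of the 7 was 10.47 to 10.49 in the WT arrays and 9.53 to 9.81 in the Cpt2KO arrays. Without Serpina6 it was 10.57 to 10.68 and 10.13 to 10.32. The part of these markers in the falls above was not tested, and in bulk liver fewer cells of a type and less RNA per cell cannot be told apart. Of 7 macrophage markers Cd68, a lysosomal membrane protein, rose by 2.32, while the other 6 differed by -0.49 to -0.15 without passing, and the list's median was -0.33. Of 6 endothelial markers Lyve1 rose by 0.92 and the others differed by -0.20 to 0.03 without passing.

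The largest increase was that of Cpt1b/Gm44502. It held 5.17, 5.03 and 5.47 in WT and 8.43, 8.36 and 8.34 in Cpt2KO, an 8.92-fold difference (3.16, SE 0.13, adjusted p = 0.000244 by limma). Cpt1b is the muscle form of carnitine palmitoyltransferase I, which makes the acylcarnitines that Cpt2 uses. Gm44502, a long noncoding RNA gene of RefSeq, spans Cpt1b and its neighbour Chkb, a choline kinase gene. Chkb/Gm44502 held 7.04, 6.65 and 6.67 against 7.55, 7.59 and 7.85 (0.87, adjusted p = 0.017 by limma), a smaller step that passed in 2 of the 6 fits without an array. That row was chosen after its values were seen.

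Phospho1/Abi3 held 6.04, 5.46 and 5.95 in WT and 8.71, 8.77 and 8.76 in Cpt2KO (2.93, 7.61-fold, SE 0.16, adjusted p = 0.000389 by limma). Phospho1 encodes a phosphatase of phosphocholine and phosphoethanolamine, and Abi3 an adaptor protein of the actin-regulating WAVE complexes. Here rows of 1 partner could be set beside the shared one, because Abi3 had 5 rows of its own, whose differences ran from -0.50 to 0.26 with none called. The brightest of them held 5.58, 5.77 and 5.94 in WT and 5.77, 5.87 and 5.62 in Cpt2KO, with overlapping groups. The step in the shared row exceeded those in the Abi3 rows by 2.66 to 3.43, again with no test because the shared row was named for its size.

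Slc26a1/Idua was the single case in which a shared row and a partner's own row changed in opposite directions. Slc26a1 encodes a sulfate and oxalate transporter, and Idua the lysosomal enzyme alpha-L-iduronidase, whose gene it overlaps. The shared row fell from 7.42, 7.66 and 7.43 to 6.33, 6.54 and 6.87 (-0.92, adjusted p = 0.0183 by limma). The row of Idua alone rose from 6.80, 6.56 and 6.60 to 7.60, 7.54 and 7.45 (0.88, adjusted p = 0.00513 by limma). The fall in the shared row lost its call without any 1 of the WT arrays or without Cpt2KO replicate 2. This pair was chosen after its values were seen.

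Acyl-CoA thioesterases, which split acyl-CoA into free fatty acid and coenzyme A, gave 2 higher of 3 rows. Over all rows naming a gene, 5.71% were called. Acot1/Acot2, the cytosolic and mitochondrial forms, held 7.53, 7.64 and 7.65 in WT and 8.90, 9.34 and 9.29 in Cpt2KO (1.57, 2.97-fold, SE 0.14, adjusted p = 0.00159 by limma). Acot2 alone rose further, from 7.83, 7.93 and 8.13 to 9.96, 10.16 and 10.18 (2.14, adjusted p = 0.000392 by limma). Acot9/Acot10 rose from 2.94, 3.07 and 2.98 to 4.28, 4.16 and 4.47 (1.31), yet another row of the same 2 genes held 3.79, 4.04 and 3.47 against 3.54, 4.10 and 3.98 with overlapping groups. The peroxisomal thiolase rows of Acaa1a and Acaa1b, outside the naming rule, rose by 0.93 and 0.64 and passed in 3 and 5 of the 6 fits without an array.

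**Figure D5:**
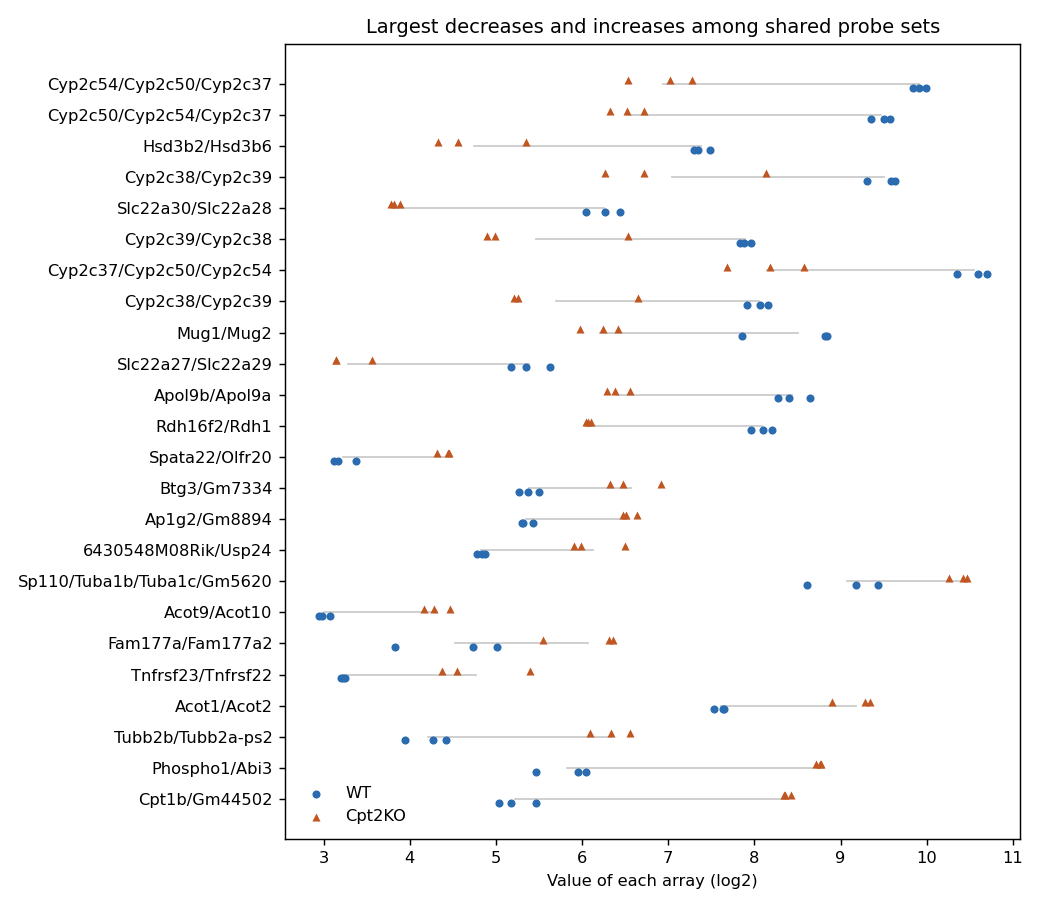
Values of each array (log2, x axis) in the 12 shared rows with the largest decreases and the 12 with the largest increases, with the symbols of each row on the y axis. Circles are WT arrays, triangles Cpt2KO arrays and the grey line joins the group means. The groups do not overlap in any of the rows, which the rule for choosing them required, and the 3 Cyp2c38/Cyp2c39 rows show 1 Cpt2KO array away from the others.

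Tubulins, the subunits of microtubules, gave 7 higher and 0 lower of 10 shared rows, with a median difference of 0.74. Over all rows naming a gene, 5.71% were called and 3.17% were higher. The tubulin rows had a median level of 7.58, and 19.2% of all shared rows at levels from 7 to 9 were called. These tubulin rows held 6 symbol sets, so several name the same genes. Tubb2b/Tubb2a-ps2 held 3.94, 4.42 and 4.27 in WT and 6.55, 6.34 and 6.09 in Cpt2KO (2.12, SE 0.17, adjusted p = 0.00123 by limma), and Tubb2b alone rose from 3.18, 3.27 and 3.29 to 4.90, 4.49 and 4.60 (1.42). The 4 rows of Tuba1b, Tuba1c and Gm5620 rose by 0.73 to 0.87, and Tuba1a/Tuba1c/Gm5620 rose by 0.48, which was not called without Cpt2KO replicate 1. The brightest of the 4 held 8.95, 9.22 and 9.31 in WT and 9.92, 9.93 and 10.01 in Cpt2KO. A row that adds Sp110 to these tubulins rose by 1.31 (8.61, 9.43 and 9.18 against 10.42, 10.47 and 10.26), while rows of Sp110 alone differed by 0.02 and -0.19. Tuba1c alone held 7.51, 7.37 and 7.65 against 8.0, 7.76 and 7.98 and did not pass (0.40, adjusted p = 0.119 by limma). The 2 rows of Tuba3a and Tuba3b, which are testis tubulins, and the row naming Il31ra with the tubulins differed by -0.04 to -0.02.

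Some of the remaining large increases could be set beside a row of 1 of their genes alone. 6430548M08Rik/Usp24 rose from 4.84, 4.87 and 4.78 to 6.50, 5.90 and 5.99 (1.30, adjusted p = 0.00631 by limma), whereas 3 rows of Usp24 alone, a ubiquitin protease gene, differed by -0.04 to 0.04. Spata22/Olfr20 rose by 1.18 (3.12, 3.38 and 3.16 against 4.31, 4.44 and 4.46), and the row of Olfr20 alone differed by -0.05. Tnfrsf23/Tnfrsf22, decoy receptors of the TNF receptor family, held 3.20, 3.25 and 3.22 against 5.39, 4.37 and 4.55 (1.55, adjusted p = 0.0156 by limma), with Cpt2KO replicate 1 highest, and lost its call without any 1 of the WT arrays. A second row of the pair differed by 0.16. Fam177a/Fam177a2 rose by 1.55 at an adjusted p of 0.049 and lost its call in each fit without an array. Ap1g2/Gm8894, which names a gamma adaptin of vesicle coats, rose by 1.20, and Btg3/Gm7334, an antiproliferative gene with its copy, by 1.19 and 0.67, the smaller of which passed in 2 of the 6 fits without an array.

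Other than the tubulins, genes with processed copies include those of ribosomal proteins and Gapdh. Of 92 shared rows of ribosomal proteins 1 was called higher and 0 lower, with differences from -0.49 to 0.65 and a median of 0.14. The called row, Dhx32/Rps13/Rps13-ps1, rose by 0.48, also names a helicase gene and lost its call in each fit without an array. Rpl6/Gm6807, which joins 1 ribosomal protein gene with a predicted gene and so is not among the 92, rose by 1.07. The row of Rpl6 alone differed by -0.57 without passing, and the 2 rows that add Gm7027 did not pass. Gapdh, the glycolytic enzyme, was named in 20 rows, as was its copy Gapdh-ps15, and no other symbol stood in as many. Its 13 rows with Gapdh-ps15, Gm10293 and Gm16374 differed by -0.52 to 0.31 and none passed. Its 7 rows with Gapdh-ps15 alone differed by 0.14 to 0.59, and 1 passed, a call that held in 1 of the 6 fits without an array. It was the dimmest of the 7, at 5.69, 5.77 and 5.69 in WT and 6.47, 6.20 and 6.24 in Cpt2KO. Rows of Gapdh alone differed by -0.07 to 0.36 without passing. None of the 48 rows of core histones passed, at a median level of 4.97. Of all shared rows at levels from 3 to 5, 3.09% were called. The histone family median farthest from 0 was -0.13, in histone H4. Proteasome rows gave 1 lower of 5, Psme2/Psme2b of the interferon-responsive activator (-0.58), which was not called without Cpt2KO replicate 1, while Psma5 rows differed by 0.27 to 0.41 without passing.

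Immune receptor, globin, histocompatibility, kallikrein and defensin families gave 0 or 1 call each. The share called over all rows naming a gene was 5.71%. The immunoglobulin and T cell receptor rows had a median level of 2.87, and 0.39% of all shared rows under a level of 3 were called. None of the 44 immunoglobulin and T cell receptor rows and none of the 5 globin rows passed, the brightest globin row, Hba-a1/Hba-a2, being at 9.16, 9.05 and 8.90 in WT and 9.47, 9.14 and 9.09 in Cpt2KO. Of 14 rows of the major histocompatibility complex, H2-Q1/H2-Q6/H2-gs10/0610037M15Rik rose by 0.73 (adjusted p = 0.0443 by limma) and was not called without Cpt2KO replicate 1. Of 11 kallikrein rows, Klk1b24/Klk1b21/Klk1b27/Klk1b11 fell by 0.53 and lost its call without any 1 array. The 12 defensin and 10 natural killer lectin receptor rows had 0 calls and median differences of -0.06 and -0.01. Their median levels were 3.25 and 1.96.

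The receptor rows that passed were dim. Vmn2r63/Vmn2r126, vomeronasal receptors, held 2.74, 2.37 and 2.77 in WT and 4.11, 4.67 and 3.49 in Cpt2KO (1.46, adjusted p = 0.0313 by limma) and passed in 1 of the 6 fits without an array. Olfr372/Olfr373 held 2.53, 2.76 and 2.63 against 3.53, 3.30 and 3.34 (0.75, adjusted p = 0.0112 by limma), and a second row of the same pair differed by -0.03.

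Of the 10 brightest shared rows 1 passed, the Serpina1 row given above. A row's level also depends on its probes and does not rank the genes. Pigt/Nlrc3 read 12.99, 12.67 and 13.10 in WT and 12.95, 13.04 and 12.94 in Cpt2KO. The mitochondrial ATP6/ATP8 row read 12.50, 12.42 and 12.35 against 12.12, 12.15 and 12.25 (-0.25, adjusted p = 0.217 by limma). Hamp/Hamp2, the iron hormone hepcidin, overlapped between the groups at 11.76, 12.16 and 12.37 against 11.82, 12.04 and 12.12. Gm5424/Ass1, which names the urea cycle enzyme argininosuccinate synthetase, held 12.51, 12.41 and 12.47 against 12.08, 12.02 and 12.13 and missed the threshold by little (-0.39, adjusted p = 0.0553).

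Rows of 1 symbol set could be compared across the array. The 367 sets with several rows covered 1002 rows. In 34 sets at least 1 row was called, in 13 every row was called, and 0 sets had rows called in both directions. In 9 sets the differences of the rows ranged over at least 1 on the log2 scale. Besides Slc22a27/Slc22a29 these were the T cell receptor pair Trav10/Trav10n (1.5, no row called), Tnfrsf22/Tnfrsf23 (1.39), Acot9/Acot10 (1.20), the 4-gene Cyp2c40 set (1.19), Akap2/Pakap/Palm2 (1.15), the phosphoglucomutases Pgm1/Pgm2 (1.15), Cd59b/Sfi1/Sft2d2 (1.10, no row called) and Cyp3a11 with its partners (1.08). In the Cyp2c40 and Cyp3a11 sets the dimmer rows had the smaller differences.

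Rows with 1 symbol gave the other check on what a shared row reports. Of the 2262 shared rows 1194 had a row of at least 1 of their genes alone, and of the 129 changed rows 64 did. In 15 of the 64 such a row was changed in the same direction, in 1 (Slc26a1/Idua) in the opposite direction, and in the others none was called. For 65 changed rows, the Serpina1, Apol9 and Cyp2c37/Cyp2c50/Cyp2c54 rows among them, no gene of the set had a row of its own, and the difference cannot be placed on any 1 gene.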

How the data were processed

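Liver RNA of 6 mice was measured on 1 array each, 3 per group. The authors deposited 1 log2 value per probe set and array, with Partek, RMA and mm9 named per the submitters' processing notes, without versions and without options. In general, RMA corrects background, equalises the distributions of arrays and combines the probes of a set, which draws differences of dim sets towards 0. Column medians over all 115050 rows were 2.870, 2.932 and 2.885 in WT and 2.923, 2.908 and 2.784 in Cpt2KO. All 6 columns were used, and scanner files and detection calls were not analysed here.

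Rows were named from the array's platform annotation, which is old. A RefSeq gene table of build GRCm38.p6, which is not the build of the files, was used for names and neighbours only and matched every symbol in 2081 of 2262 shared rows. Promoter windows came from RefSeq and were aligned with Biopython 1.88.

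The genotypes were compared in R 4.3.3 by the two-sided moderated test of limma 3.58.1, without a covariate and without a filter on level, at 4 residual and 3.06 prior degrees of freedom. Benjamini-Hochberg adjustment covered the 27755 rows naming a gene, and the threshold was 0.05. The number of arrays limits the precision. Calls "without" an array come from refits that left it out.

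Of 66 families fixed by symbol, a row belonged to one if at least 2 of its symbols did. Named rows were the 12 largest decreases and increases among rows that passed with non-overlapping groups (leaving out those only of predicted, receptor or small RNA genes), up to 4 changed rows per family or, with none, the one with the largest difference, the 10 highest levels, the 5 with most symbols, and rows of their genes alone. Rows outside this rule were chosen after their values were seen. The members, lists and rule were chosen with earlier results of these data known.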

Additional observations from a re-analysis of the deposited data

How the results depend on the processing

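All 129 changed shared rows kept their direction in every alternative that included them. Much of this was fixed beforehand and does not test robustness. WT and Cpt2KO values were fully separated in each of the 129, so leaving out 1 array could not reverse a sign. The fit over all rows and unmoderated statistics keep the same difference of group means. Of the 129 rows, 54 passed in all 6 fits that left out 1 array, while 25 passed in none. The count of 129 (59 higher, 70 lower) was 27 (9 and 18) when limma was fitted and adjusted over all 115050 rows. It was 5 (1 and 4) once listed age was added, and 58 (21 and 37) with unmoderated statistics. The 22 families with a changed row became 7, 2 and 11 in these 3 fits. Leaving out 1 array gave 64 to 99 changed rows, 22 to 36 higher, 42 to 66 lower, 13 to 20 families, and 6 to 12 in place of 15 shared rows changed together with a 1-symbol row. Cpt2 ranged from -1.03 to -0.90 without 1 array and passed each time. Its adjusted p was 0.0692 over all rows (difference -0.99) and 0.145 with listed age (difference -1.24).

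Same-numbered WT and Cpt2KO arrays deviated from their group means with correlations of 0.125, 0.157 and -0.067. Differently numbered arrays gave -0.258 to 0.115, so the highest values were of same-numbered arrays. The titles do not say that a number marks a pair, and the numbers were not taken as pairs. A fit with the replicate block called 78 shared rows, 25 of them higher. Quantile normalization, median centring, 2 filters on level, array weights, a trend with robust prior, 1 row per single gene and rows with at least 2 current genes left the counts of changed rows within 1.5 times, at 101 to 153. An array carries 1 value for all genes of a shared row, so no setting separates the genes. The fit over all rows means more tests and also estimates the prior of limma from all rows. Listed age rises with genotype, leaves fewer residual degrees of freedom and changes the differences themselves, as for Cpt2 above. The part of each in the lower counts was not tested.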
